A study of Mus musculus with 30 samples.

Results

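The 9 genes described here are imprinted growth genes of the mouse: H19, Igf2, Meg3, Rian, Mirg, Dlk1, Peg3, Plagl1 and Cdkn1c. They were found by symbol among the 41128 genes counted in both tissues, and all 9 had a row in each tissue. RNA was sequenced from the aorta in 14 libraries and from the kidney in 16 libraries of male C57Bl6J mice. WT mice carried a Cre recombinase that tamoxifen switches on in smooth muscle (Smmhc promoter) without a floxed gene, and KO mice carried the same Cre with floxed Egfr, so that the deletion was directed at smooth muscle and other cells kept the gene. All mice, WT included, had received tamoxifen on 5 days. They then ate a standard fat diet (SFD) or a high fat diet (HFD) for 18 weeks from an age of 6 weeks. The aorta groups held 3 WT-SFD, 4 WT-HFD, 3 KO-SFD and 4 KO-HFD libraries, and each kidney group held 4. Aortic libraries summed to 6403699 to 13052870 counts and renal libraries to 16354880 to 28331314. FPM stands for fragments per 1000000 counted after scaling of each library, and FPKM for FPM per kilobase of exon.

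Imprinted genes are read mainly from the copy inherited from a single parent, which is marked by DNA methylation set in the egg or the sperm. Many of them steer fetal growth. Paternally expressed genes such as Igf2 tend to promote it, maternally expressed genes such as Cdkn1c and H19 tend to restrain it, and many are turned down in most organs after birth. The counts do not separate the parental copies, so which copy was read was not measured here.

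The genes lie in 4 places of the mouse genome (build GRCm38). On chromosome 7, Igf2 (7:142650766-142666816, minus strand) encodes insulin-like growth factor 2. H19 (7:142575529-142578143, minus strand), a maternally expressed long non-coding RNA, begins 72.6 kb beyond it. Cdkn1c (7:143458339-143461050, minus strand), 792 kb on the other side of Igf2, encodes the cyclin-dependent kinase inhibitor p57Kip2. Peg3 (7:6703892-6730431, minus strand) lies at the far end of the same chromosome and encodes a paternally expressed zinc finger protein. On chromosome 12, Dlk1 (12:109452823-109463336, plus strand), the paternally expressed non-canonical Notch ligand, is followed on the same strand by the maternally expressed non-coding RNA genes Meg3 (12:109541001-109571726), Rian (12:109603940-109661716) and Mirg (12:109729764-109749460). Plagl1 (10:13060504-13131694, plus strand) encodes the paternally expressed zinc finger transcription factor ZAC1. On the opposite strand, Igf2 overlaps Igf2os, which had 22 counts over the aortae and 21 over the kidneys, and Cdkn1c overlaps Gm44732, which was not analysed here. The strand setting of the counting is not given in the sources used here, so the reads of such pairs may not be separated. Gm49394, also not analysed here, spans Igf2 on the same strand.

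Rian and Mirg are host transcripts of small RNAs, so the genes between the start of Dlk1 and the end of Mirg were counted as well. The annotation placed 58 microRNA genes in this interval of 296638 bases on chromosome 12. In the aorta 43 of them had a count, with 496 counts in all and 20 to 62 per library, whereas in the kidney a single count fell on 1 of them. Of 23 snoRNA genes in the interval, 14 had a count in the aorta, with 212 counts in all, and none in the kidney. In the aorta 73 counts fell on the 4 microRNA genes inside Rian and 42 on 7 of the 14 inside Mirg, while 381 fell on 32 of the 38 that lay in none of the 9 genes. These libraries were made for long RNA, so such counts do not measure mature microRNAs, and the kidney libraries held almost no small RNA of any kind. Mature sequences were taken from RefSeq (GRCm38.p6), which held 53 of the 58 genes. The ones below are shown because their genes had the highest counts, lay inside Rian or Mirg, or shared a seed with another one. The capitals mark the seed, bases 2 to 8 from the 5′ end.
mmu-miR-337-3p: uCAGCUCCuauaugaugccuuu
mmu-miR-540-3p: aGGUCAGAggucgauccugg
mmu-miR-341-3p: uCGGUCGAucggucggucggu
mmu-miR-1188-5p: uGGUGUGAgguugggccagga
mmu-miR-370-3p: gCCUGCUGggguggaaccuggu
mmu-miR-370-5p: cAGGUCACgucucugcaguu
mmu-miR-1193-3p: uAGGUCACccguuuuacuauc
mmu-miR-411-3p: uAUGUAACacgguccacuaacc
mmu-miR-379-3p: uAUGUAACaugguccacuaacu
mmu-miR-453: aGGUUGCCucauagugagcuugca
mmu-miR-496a-5p: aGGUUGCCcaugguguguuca

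Mir337 and Mir540, between Meg3 and Rian, had 28 counts each. Inside Rian, Mir341 had 20, Mir370 had 19 and Mir1188 had 17. Inside Mirg, Mir453 had 12 counts and Mir496a had 6, and their products miR-453 and miR-496a-5p share the seed GGUUGCC. A seed was also shared between a microRNA of Rian, miR-370-5p, and one of the stretch between Rian and Mirg, miR-1193-3p. Together with Mir483 inside Igf2 and Mir675 inside H19 on chromosome 7, neither of which had a count, 55 genes had mature sequences in RefSeq. These 102 sequences had 94 different seeds, 8 of which occurred more than once.

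The aortae had a high level of most of these genes and the kidneys of few. The tissues were sequenced in different places and were never fitted together, so their values are set side by side without a test, and tissue and library cannot be told apart. Small and structural RNA genes took 18.4% to 43.1% of all counts in the aortic libraries and 0.0425% to 0.126% in the renal ones, and no aortic level was adjusted for this. Per exon kilobase, Peg3 stood first in the aorta with a median of 7.38 FPKM (5.48 to 9.40) and exceeded Cdkn1c, at 5.42 FPKM, in 13 of 14 libraries. Cdkn1c, Meg3 at 5.32 FPKM and Igf2 at 5.11 FPKM were not separated from each other: Cdkn1c lay above Meg3 in 9 of 14 libraries and Meg3 above Igf2 in 7 of 14. Plagl1 followed with 2.92 FPKM and Rian with 2.40 FPKM, in overlapping ranges. Mirg reached 0.886 FPKM, H19 0.431 FPKM and Dlk1 0.0249 FPKM. Igf2 lay above Plagl1 in all 14 libraries, and the range of Rian did not reach that of Mirg.

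In the kidney Cdkn1c was alone at the top, with a median of 14.6 FPKM (12.0 to 18.8) that no library of Peg3 approached. Peg3 had 1.43 FPKM, Plagl1 0.814 FPKM and Igf2 0.346 FPKM, and Peg3 lay above Plagl1 in 16 of 16 libraries although their ranges overlapped. The non-coding RNAs of chromosome 12 were low, with medians of 0.0929 FPKM for Meg3, 0.0304 FPKM for Rian and 0.00678 FPKM for Mirg. Dlk1 had 0.0526 FPKM and H19 0.0521 FPKM, and Dlk1 lay above H19 in 9 of 16 libraries, so this pair was not separated. Ranked among all genes with a count, Cdkn1c stood at percentile 79.9 in the aorta and 84.2 in the kidney. Meg3 stood at 79.6 and 29.0, Igf2 at 78.8 and 38.8, and Peg3 at 84.7 and 52.2.

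**Figure D1:**
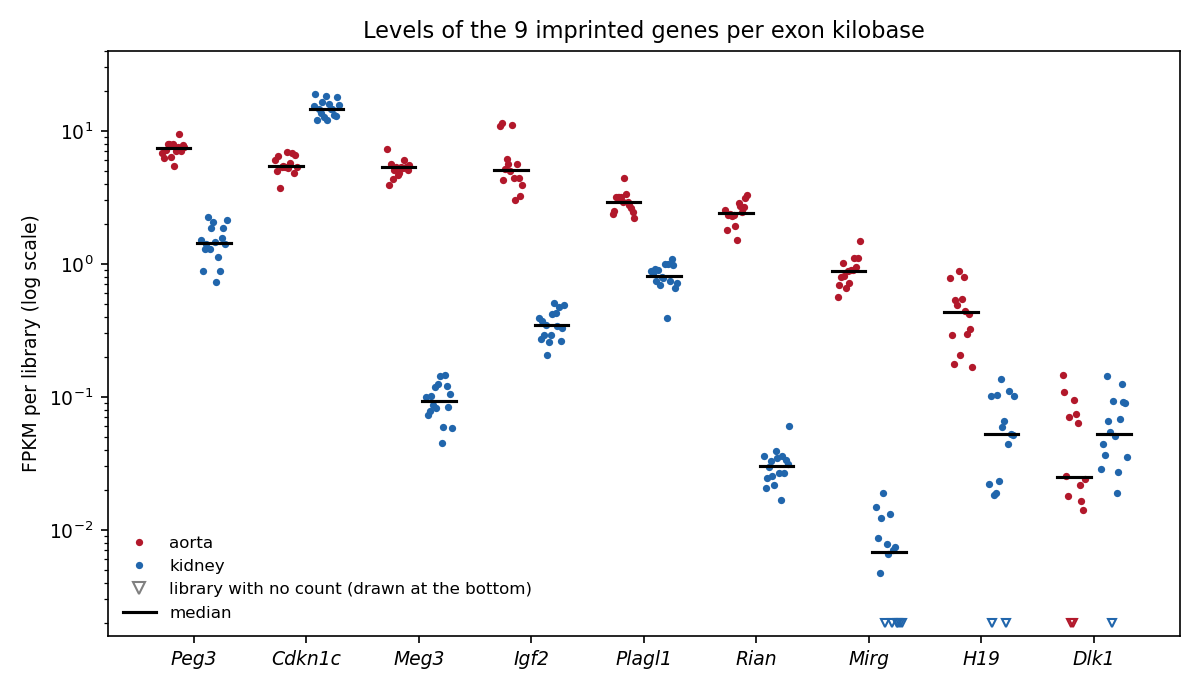
FPKM on a log axis in each of the 14 aortic (red) and 16 renal (blue) libraries for the 9 genes, with a black line at the median and triangles for libraries with no count. Cdkn1c is the gene whose renal median (14.6 FPKM) lies above its aortic one (5.42 FPKM) by the widest margin, while Meg3, Igf2, Rian and Mirg have renal medians far below the aortic ones.

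Neighbouring imprinted genes were quiet in part. Rtl1, the paternally expressed retrotransposon-derived gene between Meg3 and Rian, had 2.05 to 7.51 FPM in the aorta and at most 4 counts in a renal library. Dio3, which encodes the deiodinase at the far end of the domain, had 2 counts in 1 aortic library and 2 to 26 counts per renal library. Among other imprinted genes, Kcnq1ot1, the long antisense RNA of the Cdkn1c region, had 209 to 273 FPM in the aorta and 2.14 to 6.52 FPM in the kidney. Phlda2, a maternally expressed growth restrainer of that region, had the opposite pattern, with 1 count over all aortic libraries and 9.95 to 21.0 FPM in the kidney.

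The targeted gene was examined first. Egfr had 46.7, 39.5 and 54.3 FPM in WT-SFD aortae, 65.1, 57.0, 51.2 and 57.0 FPM in WT-HFD, 26.8, 35.5 and 28.01 FPM in KO-SFD and 27.5, 40.6, 39.7 and 33.4 FPM in KO-HFD. KO and WT did not overlap on SFD, and on HFD they did not overlap either. Averaged over the diets, Egfr was lower in KO aortae by a log2 fold change of -0.67 (SE 0.110, edgeR quasi-likelihood test with Benjamini-Hochberg adjustment over all genes, adjusted p = 0.0141, n = 7 and 7). Within a diet the change was -0.64 on SFD (edgeR adjusted p = 0.547) and -0.70 on HFD (edgeR adjusted p = 0.129), neither past the threshold of 0.05. On HFD DESeq2 called it (DESeq2 adjusted p = 0.0048), as did edgeR with the adipocyte level as a covariate (-0.72, edgeR adjusted p = 0.0388). The change was called in 4 of 22 settings on HFD and in 0 of 22 on SFD. Renal Egfr ranged from 36.9 to 60.8 FPM.

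Markers were read to check the tissue. Smooth muscle markers summed to 9565 to 17301 FPM in the aortae, led by Acta2 in 10 of them and by Myh11 in 4, with 5 of 7 markers at a count and Tagln and Cnn1 not analysed here. The renal libraries were led among proximal tubule markers by Kap, with all 6 markers at a count. Of the aortae, 3 stood apart: WT-SFD replicates 1 and 2 and KO-SFD replicate 1. Their 12 adipocyte markers, led by Fabp4 and all with a count, summed to 4223, 3207 and 2777 FPM against 426 to 1100 FPM in the other 11, where Plin4 led. Their brown adipocyte markers, led by Ucp1 in both WT-SFD aortae and by Cidea in the KO-SFD one, summed to 1485, 881 and 777 FPM against 36.8 to 349 FPM, and their smooth muscle markers to 9565, 11827 and 10304 FPM against 14380 to 17301 FPM. All 3 were on SFD, so the larger aortic diet changes below are given with and without them. Without them WT-SFD is 1 library and KO-SFD 2, assumed to vary like the other groups. KO-SFD replicate 2 stays in those values as 1 of the 2 KO-SFD libraries, although it was the next richest. The mean log2 FPM of its adipocyte markers was 5.54, beside 6.98 to 7.59 in the 3 and at most 4.06 in the rest. In such tissue RNA, fewer cells of a type and less RNA per cell cannot be told apart.

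In the aorta none of the 9 genes passed the test for diet, for genotype or for their interaction (whether the genotypes differ in their response to diet). Of the 9 genes, 8 had counts high enough for a test, and Dlk1 had not. With edgeR (adjusted p under 0.05) 0 of the 8 were called in each of the 5 contrasts, and DESeq2 called 0 as well. The edgeR background was low too, with 0.0% of 14796 genes called for HFD in WT and 0.0% for HFD in KO. It was 0.0811% for KO on SFD, 0.0811% for KO on HFD and 0.0% for the interaction. The share of all genes that DESeq2 called in these contrasts is not reported here. An unadjusted p under 0.05 was reached by 0, 2, 1, 2 and 1 of the 8 in these contrasts, beside 16.7%, 7.47%, 6.14%, 5.04% and 4.1% of all genes. The median log2 fold change of the 8 was 0.08 for HFD in WT, 0.03 for HFD in KO, 0.07 for KO on SFD and 0.13 for KO on HFD, where the median of all genes was -0.01, -0.00, -0.03 and -0.01. Standard errors of single genes ran from 0.12 to 0.58 in the 4 pairwise contrasts and up to 0.77 for the interaction. Small changes could therefore not be detected, and larger ones could be missed. In simulated aortic counts for HFD in WT, edgeR called 42% of the genes changed by 1 on the log2 scale. It called 79% of those changed by 2. Among unchanged genes edgeR called 5 and DESeq2 called 21.

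Peg3, Meg3 and Cdkn1c varied least among the aortae. Peg3 had 90.5, 83.3 and 96.2 FPM in WT-SFD, 106, 106, 84.2 and 106 FPM in WT-HFD, 73.0, 94.2 and 101 FPM in KO-SFD and 125, 94.2, 103 and 101 FPM in KO-HFD. All groups overlapped, and the coefficient of variation over the 14 aortae was 13.03%. Meg3, a non-coding RNA with growth-restraining activity in cultured cells, ranged from 71.2 to 131 FPM with a median of 96.2 FPM. Its highest and its lowest value both came from WT-SFD aortae. The library at 131 FPM, WT-SFD replicate 1, also had the highest sums of neuron (78.2 FPM), adrenal medulla (60.6 FPM) and Schwann cell markers (105 FPM), beside at most 24.9, 16.7 and 37.8 FPM elsewhere; their part in the value of Meg3 was not tested. Cdkn1c ranged from 7.55 to 14.2 FPM, and its largest log2 fold change was 0.25 (KO on HFD, SE 0.169).

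Igf2 had the widest spread among the abundant genes. It had 61.7, 65.7 and 24.4 FPM in WT-SFD aortae, 29.7, 34.9, 32.2 and 28.8 FPM in WT-HFD, 63.4, 25.1 and 17.4 FPM in KO-SFD and 32.2, 25.1, 18.6 and 22.6 FPM in KO-HFD. The 3 values above 60 FPM were those of the 3 aortae rich in adipocyte transcripts, and the other 11 lay between 17.4 and 34.9 FPM. The log2 fold change for HFD in WT was -0.69 (SE 0.371, edgeR adjusted p = 0.374). It became 0.37 (edgeR adjusted p = 0.872) without the 3 aortae and 0.27 (edgeR adjusted p = 0.837) with the adipocyte level as a covariate, so its direction turned. Averaged over genotypes it was -0.60 (SE 0.264, edgeR adjusted p = 0.237), 0.30 without the 3 aortae (edgeR adjusted p = 0.875) and -0.76 when WT-SFD replicate 3, an aorta without that excess, was left out (edgeR adjusted p = 0.0427).

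**Figure D2:**
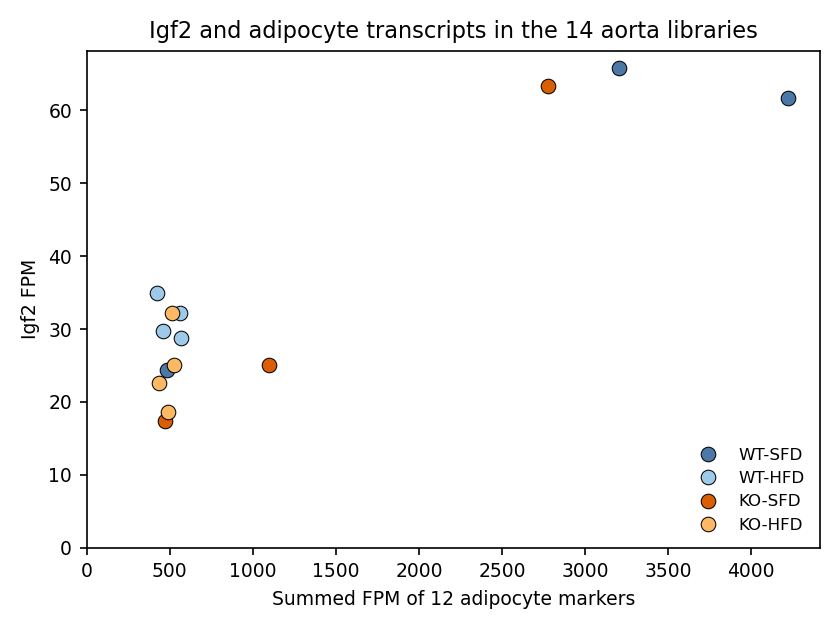
Igf2 in FPM (vertical axis) against the summed FPM of 12 adipocyte markers (horizontal axis) in the 14 aortic libraries, coloured by group. The 3 SFD aortae with 2777 FPM or more of adipocyte markers are the 3 with Igf2 above 60 FPM, and the remaining 11 lie between 17.4 and 34.9 FPM.

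Plagl1, which also regulates other imprinted genes, had the lowest unadjusted p of the 8 tested in the aorta. It had 18.4, 19.4 and 24.8 FPM in WT-SFD, 24.7, 25.0, 24.8 and 22.8 FPM in WT-HFD, 34.8, 26.2 and 22.8 FPM in KO-SFD and 21.8, 20.4, 19.3 and 17.2 FPM in KO-HFD. All 4 KO-HFD values lay below all 3 KO-SFD values and below all 4 WT-HFD values. The log2 fold change for HFD was -0.50 in KO (SE 0.147, edgeR adjusted p = 0.556), and the interaction of diet and genotype was -0.73 (SE 0.210, edgeR adjusted p = 1.00). Without the 3 aortae these were -0.31 and -0.29, and with the adipocyte covariate -0.49 and -0.72. For KO on SFD the change was 0.42 (edgeR adjusted p = 0.776), was 0.42 with the covariate and turned to -0.02 without the 3 aortae (edgeR adjusted p = 0.993). For KO on HFD, where none of the 3 takes part, it was -0.31 (SE 0.137, edgeR adjusted p = 0.964).

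The host transcripts Rian and Mirg had their highest group means in KO-HFD aortae, 52.7 and 8.43 FPM, but neither passed the test. Mirg had 4.09, 5.02 and 5.78 FPM in WT-SFD, 7.45, 5.93, 4.80 and 6.39 FPM in WT-HFD, 5.22, 6.55 and 6.53 FPM in KO-SFD and 8.07, 6.86, 7.999 and 10.8 FPM in KO-HFD. The KO-HFD values lay above all 3 KO-SFD values but overlapped with WT-HFD. The log2 fold change of Mirg was 0.46 for HFD in KO (SE 0.212, edgeR adjusted p = 0.664), 0.36 without the 3 aortae rich in adipocyte transcripts and 0.21 with the adipocyte covariate. For KO on HFD it was 0.45 (SE 0.194, edgeR adjusted p = 0.956). Rian had 43.0, 41.8, 42.6 and 35.0 FPM in WT-HFD and 44.6, 49.1, 57.2 and 60.1 FPM in KO-HFD, without overlap, and a log2 fold change of 0.38 (SE 0.177, edgeR adjusted p = 0.985). On SFD it had 46.7, 32.7 and 42.3 FPM in WT aortae. The KO-SFD values, 27.5, 52.4 and 49.3 FPM, overlapped with these. The lincRNA gene Gm26945, with 284 counts in the aorta, lies inside Rian on the same strand, so reads of the pair may not be separated.

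H19 and Dlk1 were scarce in the adult aorta. H19 had 14, 7 and 3 counts in WT-SFD, 13, 12, 21 and 4 in WT-HFD, 10, 14 and 12 in KO-SFD and 6, 11, 10 and 3 in KO-HFD. Scaled to 1.34, 1.95 and 1.09 FPM in KO-SFD and 0.734, 1.03, 0.80 and 0.41 FPM in KO-HFD, the KO groups did not overlap, but the log2 fold change of -0.91 had an SE of 0.540 (edgeR adjusted p = 0.717). It was -0.96 without the 3 aortae rich in adipocyte transcripts and -0.29 with the adipocyte covariate. Dlk1, a marker of preadipocytes as well as a Notch ligand, had 6, 6 and 1 counts in WT-SFD, 1, 4, 0 and 0 in WT-HFD, 4, 3 and 4 in KO-SFD and 1 in each KO-HFD library. These counts were too few for a test. For HFD in KO, H19, Mirg and Plagl1 had groups that did not overlap, 3 of 8 beside 7.04% of all genes tested, and for KO on HFD Plagl1 and Rian, 2 of 8 beside 4.18%. None of the 8 was without overlap for HFD in WT (8.96% of all genes) or for KO on SFD (8.57%).

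**Figure D3:**
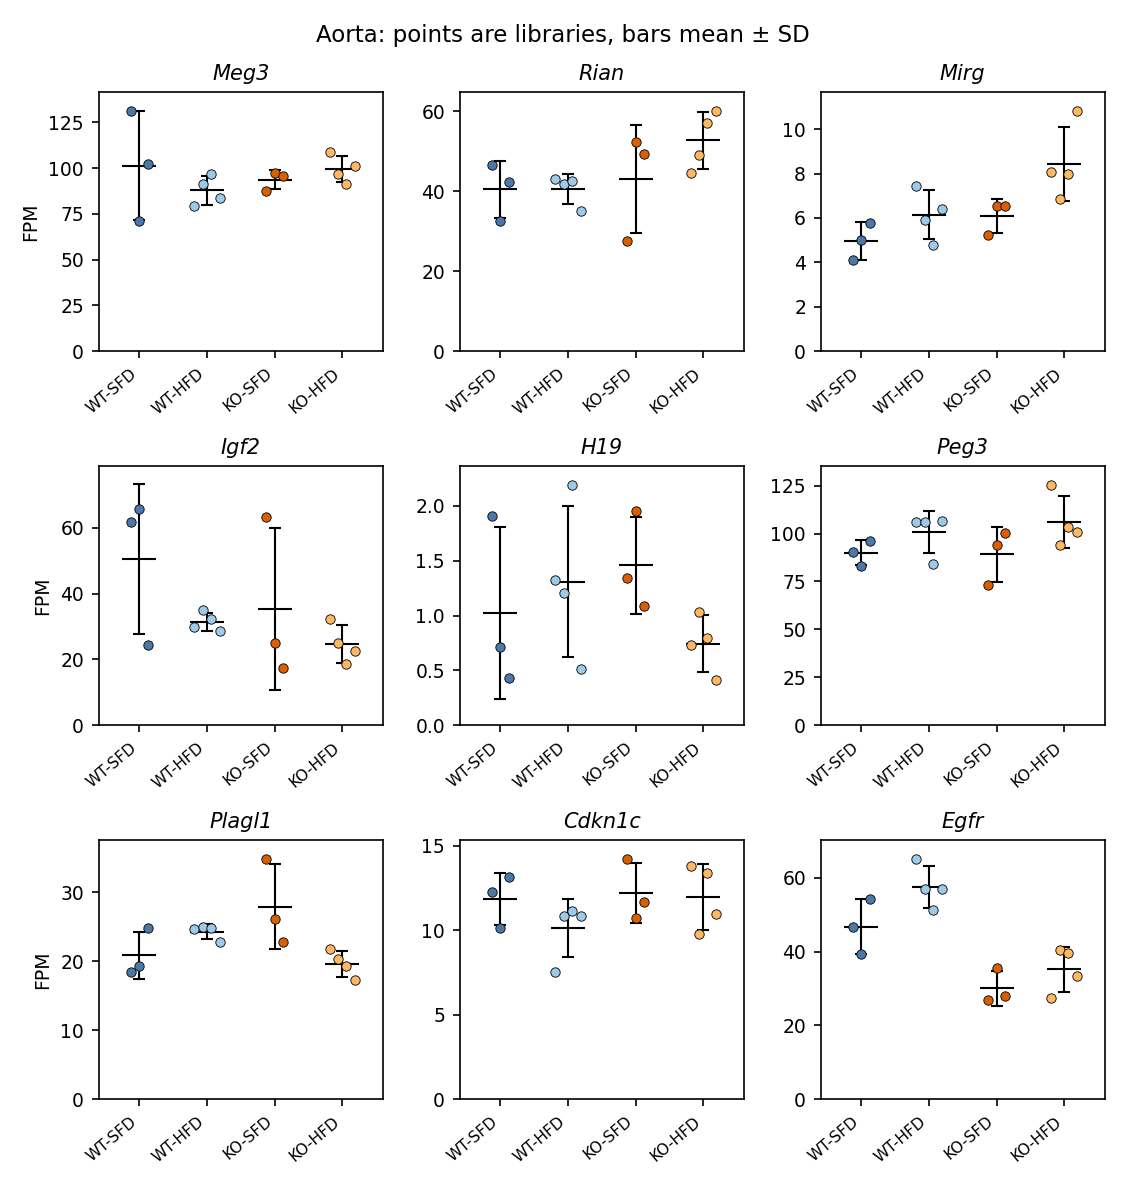
FPM of 8 imprinted genes and of Egfr in each aortic library by group, with each vertical axis starting at 0, points for libraries and black marks with bars for the mean and SD. Igf2 shows its 3 high SFD libraries above 60 FPM, and Plagl1 shows KO-HFD (17.2 to 21.8 FPM) below WT-HFD (22.8 to 25.0 FPM).

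In the kidney Peg3 was the one gene of the 9 with a diet difference past the threshold. With all libraries kept, edgeR called it only when both genotypes were averaged. Peg3 had 20.2, 11.8, 17.3 and 18.7 FPM in WT-SFD kidneys and 30.0, 17.2, 24.7 and 27.4 FPM in WT-HFD. It had 19.3, 9.65, 15.03 and 11.9 FPM in KO-SFD and 20.8, 24.9, 18.9 and 28.7 FPM in KO-HFD. On average WT kidneys had 24.8 ± 5.51 FPM on HFD against 17.0 ± 3.65 FPM on SFD (SD, n = 4). KO kidneys had 23.3 ± 4.35 FPM against 13.95 ± 4.19 FPM (SD, n = 4). In each genotype the groups overlapped. Averaged over genotypes, a contrast added after the data had been seen, Peg3 rose 1.56-fold on HFD (log2 0.64, SE 0.156, edgeR adjusted p = 0.0248), beside 4.48% of 15034 genes called. Within a genotype the log2 fold change was 0.55 in WT (SE 0.219, edgeR adjusted p = 0.508) and 0.74 in KO (SE 0.221, edgeR adjusted p = 0.100), and the change in KO was called by DESeq2 (0.73, DESeq2 adjusted p = 0.0391) and by edgeR without KO-SFD replicate 1 (0.94, edgeR adjusted p = 0.0388).

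The call of Peg3 missed the threshold in several repeats, each with a positive fold change. It did so with library totals in place of scaling factors (0.65, edgeR adjusted p = 0.0533) and with the podocyte level as a covariate (0.40, edgeR adjusted p = 0.260). It also did so, with log2 fold changes of 0.57 to 0.62 and edgeR adjusted p-values of 0.0515 to 0.0671, when WT-SFD replicate 2, WT-HFD replicate 1 or 4, KO-SFD replicate 4 or KO-HFD replicate 2 or 4 was left out. Podocyte markers moved in part with Peg3: the 7 markers summed to 305, 262, 251 and 339 FPM in WT-SFD, 301, 249, 323 and 350 FPM in WT-HFD, 235, 189, 230 and 215 FPM in KO-SFD and 232, 270, 323 and 337 FPM in KO-HFD. Their groups overlapped in WT, and in KO by 1 library each. Beyond the covariate, their part in the result was not tested. Other marker lists differed by diet in KO, while their WT groups overlapped. Of all single genes tested, 8.87% had groups without overlap for HFD in KO. The 5 distal nephron markers, led by Umod and all with a count, summed to 6380 to 8625 FPM in WT-SFD, 5797 to 7555 FPM in WT-HFD, 8694 to 9233 FPM in KO-SFD and 4669 to 7587 FPM in KO-HFD, without overlap in KO. Of 10 skeletal muscle markers 4 to 7 had a count in a kidney, led by Pvalb, and their sums were 19.5 to 38.5 FPM in WT-SFD, 36.6 to 53.2 FPM in WT-HFD, 17.1 to 24.7 FPM in KO-SFD and 33.7 to 76.7 FPM in KO-HFD, without overlap in KO. Most of that sum was Pvalb, which distal tubule cells express as well. Adrenal cortex markers were low, with 2 to 4 of 7 at a count and Star leading. Cyp11b1 was at 0 in all kidneys, and Cyp11b2 and Nr5a1, without a count in either tissue, were not analysed here. The list summed to 2.33 to 3.58 FPM in WT-SFD and 2.25 to 3.29 FPM in WT-HFD. In KO it summed to 2.91 to 4.14 FPM on SFD and 2.01 to 2.82 FPM on HFD, again without overlap. The part of these 3 lists in the result of Peg3 was not tested. The genes most like Peg3 over the 16 kidneys were Copa (Pearson r = 0.933 of log2 FPM), Ttc28 (r = 0.927) and 9930111J21Rik2 (r = 0.926). In the aorta the averaged log2 fold change of Peg3 was 0.20 (SE 0.095, edgeR adjusted p = 0.266), beside 3.79% of all genes called, and it was 0.10 without the 3 aortae rich in adipocyte transcripts and 0.05 with the adipocyte covariate.

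No other gene of the 9 passed in the kidney. H19 and Mirg had too few counts for a test. With edgeR 0 of the 7 tested were called in each of the 5 planned contrasts, with unadjusted p under 0.05 for 1, 1, 0, 0 and 0 of them beside 7.9%, 15.8%, 8.37%, 1.65% and 3.23% of all genes. Of all genes, 0.911% were called for HFD in WT, 2.3% for HFD in KO, 0.0133% for KO on SFD, 0.00665% for KO on HFD and 0.0% for the interaction. No gene of the 7 had groups without overlap in the 4 pairwise contrasts, beside 5.01%, 8.87%, 3.98% and 1.32% of all genes.

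Cdkn1c, the most abundant of the 9 per kilobase in the kidney, had 31.4, 38.3, 24.5 and 29.8 FPM in WT-SFD, 27.7, 33.5, 25.9 and 37.2 FPM in WT-HFD, 24.4, 32.6, 29.5 and 29.7 FPM in KO-SFD and 26.9, 26.3, 36.5 and 32.0 FPM in KO-HFD. All 4 groups covered nearly the same range. Podocytes of the adult kidney are known for p57Kip2. Plagl1 ranged from 3.07 to 8.52 FPM, both ends in KO, with group means of 6.13 to 6.71 FPM.

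Igf2 had 2.22, 1.57, 2.12 and 1.66 FPM in WT-SFD kidneys, 1.99, 1.17, 1.48 and 1.67 FPM in WT-HFD, 2.41, 2.91, 2.45 and 1.97 FPM in KO-SFD and 2.71, 1.51, 1.90 and 2.82 FPM in KO-HFD. Values tended to be higher in KO, with overlap on both diets. Averaged over the diets, the log2 fold change was 0.43 (SE 0.168, edgeR adjusted p = 0.851).

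The RNAs of the chromosome 12 domain were too scarce in the kidney to show small changes. Meg3 ranged from 0.808 to 2.62 FPM, both ends in KO-SFD, and Rian from 0.307 to 1.11 FPM. The genes most like Meg3 across the kidneys were Aoc3 (Pearson r = 0.837), Steap4 (r = 0.762) and Plin4 (r = 0.756). Mirg had 15 counts in 10 of the 16 libraries and 0 in all 4 KO-HFD libraries, which allows 0.130 to 0.190 FPM per library (3 counts, counting error only). Dlk1 had 3, 4, 6 and 18 counts in WT-SFD, 8, 6, 0 and 11 in WT-HFD, 6, 2, 3 and 7 in KO-SFD and 13, 12, 8 and 4 in KO-HFD. H19 had 43 counts over the 16 kidneys and at most 7 in any of them.

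**Figure D4:**
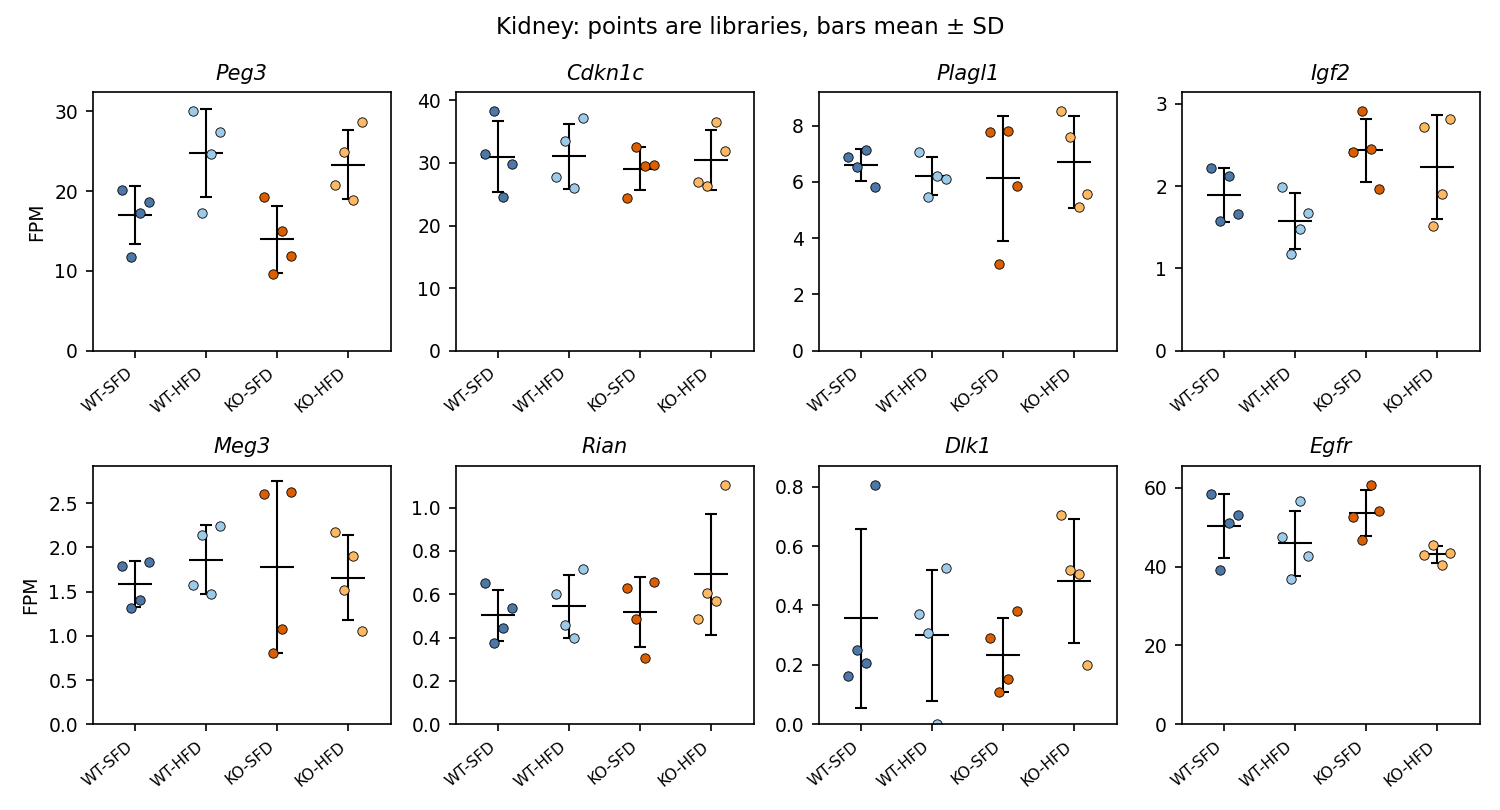
FPM of 7 imprinted genes and of Egfr in each renal library by group, with each vertical axis starting at 0, points for libraries and black marks with bars for the mean and SD. Peg3 lies higher on HFD in both genotypes with overlapping points, and the 4 groups of Cdkn1c span 24.4 to 38.3 FPM.

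**Figure D5:**
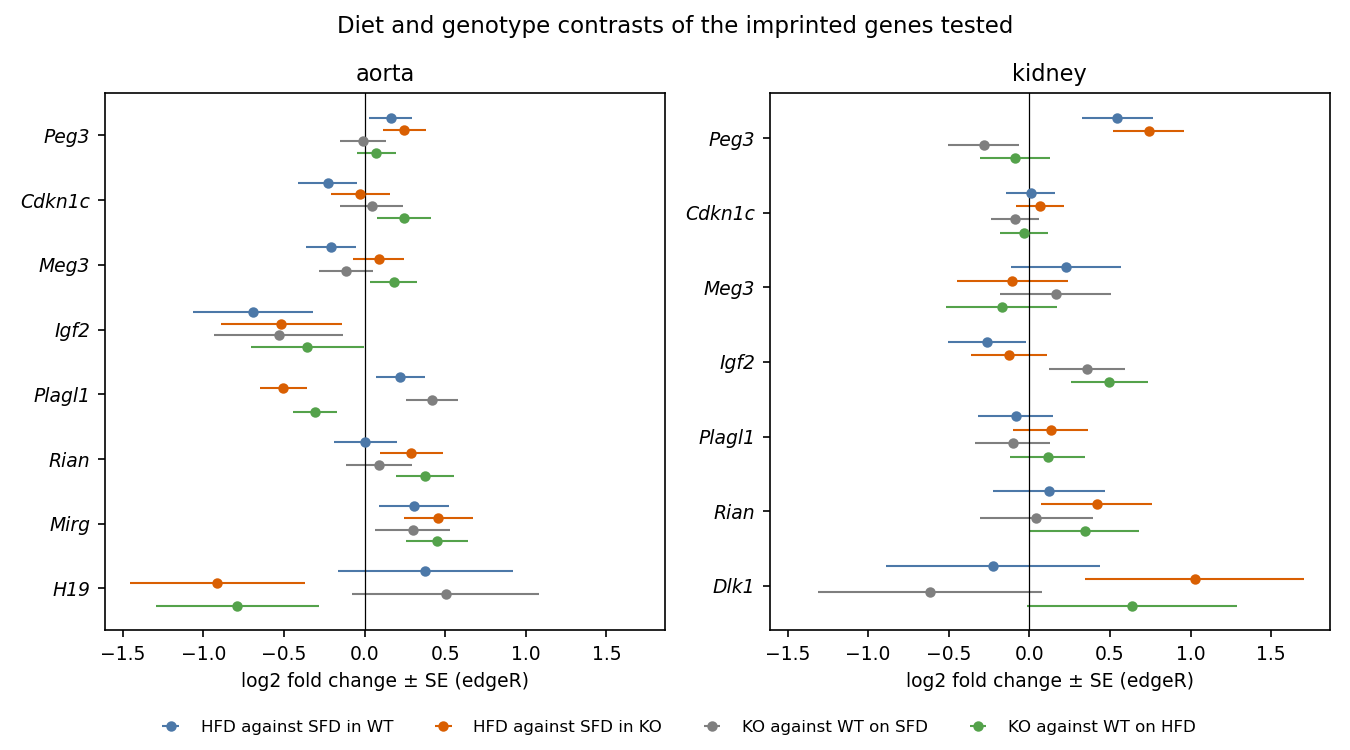
Log2 fold change with its SE (horizontal axis) from edgeR for each gene tested in the aorta (left) and the kidney (right), in the 4 pairwise contrasts of diet and genotype. Plagl1 on HFD in KO aortae (-0.50) and Peg3 on HFD in KO kidneys (0.74) lie furthest from 0 relative to their SE.

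Whether the genes varied together from mouse to mouse was asked over all pairs. There were 28 pairs in the aorta and 21 in the kidney, each taken over all libraries and after removal of the group means. Benjamini-Hochberg adjustment was made separately for each tissue, measure and version. By Pearson's r no pair passed it. The lowest p by that measure belonged to Igf2 and Rian over all aortae (Pearson r = -0.72, permutation p = 0.00407, adjusted p = 0.105, Spearman rho = -0.73, permutation p = 0.00394, adjusted p = 0.110, n = 14). The coefficient of this pair was -0.41 without the 2 libraries farthest from the median of Igf2. With the group means removed it was -0.69, and -0.58 without the 2 farthest. By Spearman's rho 1 pair passed, Meg3 and Dlk1 in the kidney after removal of the group means (rho = 0.73, permutation p = 0.00216, adjusted p = 0.0454, n = 16). Its Pearson r was 0.62 (permutation p = 0.0111, adjusted p = 0.186), and 0.59 without the 2 farthest libraries. Over all kidneys without that removal rho was 0.66 (permutation p = 0.00706, adjusted p = 0.0741). Dlk1 had only 0 to 18 counts in these libraries. The permutations mixed libraries of all groups, so p-values after removal of the group means may be too small.

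The genes that act with this group were followed through lists. Of 64 other imprinted genes, 58 were in the files, and 41 had counts high enough for a test in the aorta and 44 in the kidney. In the aorta edgeR called 0 in the 5 planned contrasts (12 of 205 tests with unadjusted p under 0.05), and DESeq2 called 2 of these tests, Slc38a4 higher and Pon3 lower on HFD in WT. Aortic Slc38a4 had at most 24 counts in a library, and its log2 fold change was 2.17 (DESeq2 adjusted p = 0.0269), or 2.45 with edgeR without the 3 aortae rich in adipocyte transcripts (edgeR adjusted p = 0.844). That of Pon3 was -0.71 (DESeq2 adjusted p = 0.0217), or -0.25 with edgeR without the 3 aortae (edgeR adjusted p = 0.917). Averaged over genotypes DESeq2 called aortic Pon3 as well (-0.44, DESeq2 adjusted p = 0.0392), and without the 3 aortae that change was -0.15 (edgeR adjusted p = 0.915). In the kidney edgeR called 2 of 44 higher on HFD in WT, beside 0.911% of all genes called in either direction, and 3 of 44 higher in KO, beside 2.3%, with none lower. DESeq2 called the same 2 in WT, and in KO it called Pon3 higher and Airn lower as well. The genotype contrasts and the interaction had no call among them with either tool.

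Slc38a4, an imprinted amino acid transporter, was the clearest of these. It had 1.46, 0.88, 0.891 and 1.30 FPM in WT-SFD kidneys, 4.44, 4.24, 3.64 and 3.34 FPM in WT-HFD, 1.74, 1.19, 0.869 and 0.819 FPM in KO-SFD and 3.80, 3.81, 3.80 and 3.87 FPM in KO-HFD. No HFD kidney overlapped with an SFD kidney. In WT kidneys Slc38a4 rose by 1.79 on the log2 scale (SE 0.236, edgeR adjusted p = 8.0e-04), and in KO by 1.72 (SE 0.237, edgeR adjusted p = 7.5e-04). Nap1l5, a paternally expressed gene related to nucleosome assembly proteins, rose by 0.97 in WT (SE 0.192, edgeR adjusted p = 0.0186) and 1.17 in KO (SE 0.194, edgeR adjusted p = 0.00265). Its call in WT was kept in 10 of 16 repeats that left out a single kidney. Nap1l5 had 3.13 to 4.99 FPM in the 8 SFD kidneys and 6.14 to 11.8 FPM in the 8 HFD kidneys. Gatm, the first enzyme of creatine synthesis, rose in KO by 1.45 (SE 0.257, edgeR adjusted p = 0.00459). With the podocyte covariate the KO calls of Nap1l5 (log2 fold change 0.98, edgeR adjusted p = 0.118) and Gatm (1.33, edgeR adjusted p = 0.148) missed the threshold. Averaged over genotypes 4 of the 44 rose, Pon3 being the fourth, and 1 fell, beside 4.48% of all genes called. The one that fell was Airn, the antisense RNA of Igf2r, by 0.79 on the log2 scale (edgeR adjusted p = 0.0170). With the podocyte covariate the averaged calls of Airn, Pon3 and Gatm missed the threshold. The change of Airn was then -0.92 (edgeR adjusted p = 0.0507), that of Pon3 went from 0.89 to 0.81 (edgeR adjusted p = 0.0113 and 0.115) and that of Gatm from 1.04 to 0.97 (edgeR adjusted p = 0.00209 and 0.0509).

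A further list held 12 genes related to IGF2: receptors, IGF-binding proteins, IGF2 mRNA-binding proteins and Igf1. Of these, 11 were tested in each tissue, and Igf2r is also in the list of other imprinted genes. In the aorta edgeR and DESeq2 called 0 in the planned contrasts, with unadjusted p under 0.05 in 10 of 55 tests, where 4.1% to 16.7% of all genes reached it in each contrast. In the kidney Igf2bp1, an RNA-binding protein of Igf2 mRNA, fell on HFD by 2.15 in WT (SE 0.253, edgeR adjusted p = 5.1e-04) and by 2.03 in KO (SE 0.246, edgeR adjusted p = 3.8e-04) on the log2 scale. Its values were 5.76 to 7.21 FPM in WT-SFD, 0.816 to 1.76 FPM in WT-HFD, 5.68 to 9.26 FPM in KO-SFD and 1.27 to 2.77 FPM in KO-HFD. Igfbp3, which binds IGFs in plasma, rose in KO by 0.58 (SE 0.147, edgeR adjusted p = 0.0479), a call kept in 10 of 23 repeats. With the podocyte covariate it was 0.38 (edgeR adjusted p = 0.611). Averaged over genotypes Igfbp3 rose by 0.43 (edgeR adjusted p = 0.0231) and Igfbp4, another IGF-binding protein, by 0.60 (edgeR adjusted p = 0.0453), and with the podocyte covariate these were 0.31 and 0.52 (edgeR adjusted p = 0.259 and 0.246). For Igf2 itself, the renal log2 fold change on HFD was -0.26 in WT (SE 0.241) and -0.13 in KO (SE 0.235).

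The last 3 lists held 12 genes of imprint maintenance, 16 CDK inhibitors and cell cycle genes and 8 genes of Dlk1 and Notch signalling. With edgeR and with DESeq2, 0 of their tests were called in the 5 planned contrasts of either tissue. An unadjusted edgeR p under 0.05 was reached in 1 of 45 tests of imprint maintenance genes in the aorta and 2 of 45 in the kidney, in 3 of 50 and 10 of 65 of the cell cycle list and in 2 of 35 and 1 of 40 of the Notch list. Of all genes, 4.1% to 16.7% reached it in each aortic contrast and 1.65% to 15.8% in each renal one. Uhrf1, which guides maintenance methylation to replicated DNA, came nearest in the first list, with a log2 fold change of 0.85 for HFD in KO kidneys (edgeR adjusted p = 0.156). Averaged over genotypes, Cdkn2c, the CDK inhibitor p18, fell by 1.34 on the log2 scale in the aorta (edgeR adjusted p = 0.0403) and rose by 0.43 in the kidney (edgeR adjusted p = 0.0357). Without the 3 aortae rich in adipocyte transcripts the aortic change of Cdkn2c was -0.36 (edgeR adjusted p = 0.915), and with the podocyte covariate the renal one was 0.31 (edgeR adjusted p = 0.303). Its call was kept in 2 of 14 repeats that left out a single aorta and in 6 of 16 that left out a single kidney. In the same averaged contrast DESeq2, but not edgeR, called 3 further genes of these lists. They were Uhrf1, higher in the kidney (0.70, DESeq2 adjusted p = 0.0268, edgeR adjusted p = 0.0651), the CDK inhibitor gene Cdkn1a, lower in the kidney (-0.47, DESeq2 adjusted p = 0.0334, edgeR adjusted p = 0.0758), and the Notch target Heyl, higher in the aorta (0.36, DESeq2 adjusted p = 0.0112, edgeR adjusted p = 0.0602). Without the 3 aortae the change of Heyl was 0.24 (edgeR adjusted p = 0.854).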

How the data were processed

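RNA of 14 aortae and 16 kidneys was analysed. The deposited values are whole-number counts per gene, which the authors made, per the labels and methods, with cutadapt, TopHat on mm10 and featureCounts. The strand setting is not given in the sources used here. Genes were matched to GENCODE vM21. Genes of chromosomes 9, X, Y and others without counts were not analysed here. The members and lists were chosen with earlier results of these data known, and the named genes are the 9 members, the listed genes and the 3 genes most like a member, given for renal Peg3 and Meg3 and not reported here for the others. Counts were fitted per tissue with edgeR 4.0.16 in R 4.3.3 (quasi-likelihood test, TMM factors, filterByExpr, 4 groups in 1 fit, Benjamini-Hochberg over 14796 aortic and 15034 renal genes). Genes were called at an adjusted p under 0.05. 2 averaged contrasts were added after seeing the data. DESeq2 1.42.0, other scalings, filters, covariates and left-out libraries served as alternatives. Shares of all genes called are those of edgeR, also where DESeq2 calls are named. Pairs used 100000 permutations. FPM are TMM-scaled counts per 1000000, and FPKM divide FPM by union exon length. The fits were tested on simulated data. Replicates are separate mice, and 3 mice gave both tissues.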

Additional observations from a re-analysis of the deposited data

Results flagged for a closer look

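In 5 of 50 groups of 4 libraries, 1 library lay far from the other 3 by Dixon's criterion, where chance flags about 1 in 20. Of these, 4 were the lowest WT-HFD aorta of Rian (35.0 FPM), Peg3 (84.2 FPM), Plagl1 (22.8 FPM) and Cdkn1c (7.55 FPM). The fifth was the highest WT-SFD kidney of Dlk1 (0.807 FPM, 18 counts).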

How the results depend on the processing

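Of the alternative values, 311 of 323 counts of called genes and 766 of 840 fold changes kept their direction and side of the threshold. Most of these counts were 0 in the main fit, and a fold change counted as kept could still shrink. That of aortic H19 for HFD in KO went from -0.91 to -0.29 with the adipocyte covariate. The diet effect on aortic Igf2 reversed with the adipocyte covariate (0.27 in WT, 0.35 averaged) and without the 3 aortae rich in adipocyte transcripts (0.37 and 0.30), and KO against WT on SFD reversed for aortic Plagl1 without them (-0.019). For HFD in KO kidneys, 1 gene was called with DESeq2 and 0 to 1 when a library was left out. For the averaged diet contrast, the renal call went to 0 at an adjusted p of 0.001, with library totals and with the podocyte covariate. It was 0 to 1 when a library was left out, in the kidney as in the aorta. The causes were not tested. Within a tissue no paired analysis of the groups was possible, because replicates are separate mice and their numbers only follow accession order. The 3 mice that gave both tissues were not tested as pairs. Low counts limit H19, Dlk1 and renal Mirg.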
